A study of Homo sapiens with 4 samples.

Results

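The ARID3B antibody gave 2 lists of binding sites (peaks) in the head and neck cancer cell line OECM1, 1 from control cells and 1 from ARID3B-edited cells, and the peaks that were kept, lost and gained between them are described here. All peaks on chromosomes 1 to 22 were taken, 3095 in control and 4577 in edited cells, which is 7672 of the 10755 autosomal peaks in the 4 lists of the series. A control peak was counted as kept when it shared 1 bp or more with an edited peak and as lost when it did not, and an edited peak without a control counterpart was counted as gained. Control cells had received Cas9-ctrl and edited cells ARID3B-Cas9, and both were grown in RPMI with fetal bovine serum. The sample titles call the edited cells a knockdown and the series title calls them a knockout. Neither the clonality of the cells nor the ARID3B protein left in them is recorded in the labels, and a peak list does not measure it. The other 2 lists were made with an antibody against KDM4C in the same kinds of cells.

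ARID3B belongs to a family of proteins that bind DNA through an AT-rich interaction domain and act as regulators of transcription. It is known for roles in development and has been studied in the growth and survival of tumour cells. KDM4C is a histone demethylase that removes methyl groups from lysine 9 of histone H3. In chromatin immunoprecipitation with sequencing, DNA bound by the antibody's target is recovered, and places where sequenced fragments (tags) pile up are called as peaks.

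Each group held 1 library, so the comparison had no replicate check and no p-value is given. Intervals are exact 95% intervals and cover counting error only. The control library had 24439463 tags after removal of tags at repeated positions, and the edited library had 20878112. Each list was called without an input library, so a peak stands above the tags around it in its own library. The fold enrichment and the score of a peak (the negative log10 of its p-value from the peak caller, multiplied by 10, with the cutoff at 50) are the authors' own values. They were used only to describe, rank or filter peaks within a list, and a difference in them between the lists shows no change of binding. Without a reference genome of the build used, GRCh37, no sequence is given, and regions are named by position.

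Most control peaks were not called again in edited cells, and the share called again was higher among wide peaks and peaks with many tags. Of 3095 control peaks, 707 were kept (22.8%, interval 21.4 to 24.4) and 2388 were lost. Of 4577 edited peaks, 717 had a control counterpart (15.7%, interval 14.6 to 16.8) and 3860 were gained. The edited list was 1.48 times as long as the control list (interval 1.41 to 1.55). With the KDM4C antibody, 34.0% of the control peaks were kept (interval 31.5 to 36.6), and the edited list was 1.30 times as long (interval 1.21 to 1.4).

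Counted by unscaled tags, the longer edited list came from peaks with the fewest tags. Peaks of 9 to 11 tags numbered 688 in control cells and 2086 in edited cells, 3.03 times as many (interval 2.78 to 3.31). Peaks of 12 tags or more numbered 2407 and 2491, a ratio of 1.03 (interval 0.978 to 1.09), and peaks of 30 tags or more numbered 573 and 574. Among unmatched peaks of 12 tags or more, 1722 were lost and 1829 gained, whereas among those of 9 to 11 tags 666 were lost and 2031 gained. These limits are the same raw tag numbers in libraries of unlike depth. With a score of 60 or more the edited list was still 1.33 times as long (interval 1.24 to 1.43). With a score of 100 or more the ratio was 1.14 (interval 0.986 to 1.32). The smallest peak had 10 tags in the control list and 9 in the edited list, so the shallower library was called down to a lower tag number, and the part of this in the list lengths was not tested.

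The share of peaks called again rose with their tags. Of the 1613 control peaks with fewer than 15 tags, 5.46% were kept (interval 4.40 to 6.68). The kept share was 23.1% of 909 peaks with 15 to 29 tags and 62.2% of 381 peaks with 30 to 99 tags. Of the 192 control peaks with 100 tags or more, 172 were kept (89.6%, interval 84.4 to 93.5) and 20 were lost. From the lowest to the highest of these classes the intervals did not overlap. Edited peaks followed the same order, with 3.85%, 22.6%, 60.2% and 79.3% matched. With the KDM4C antibody the kept share at 15 to 29 tags was 43.7% (interval 37.8 to 49.8), above the 23.1% of ARID3B (interval 20.4 to 26), and at 100 tags or more it was 89.3%, beside 89.6%.

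**Figure D1:**
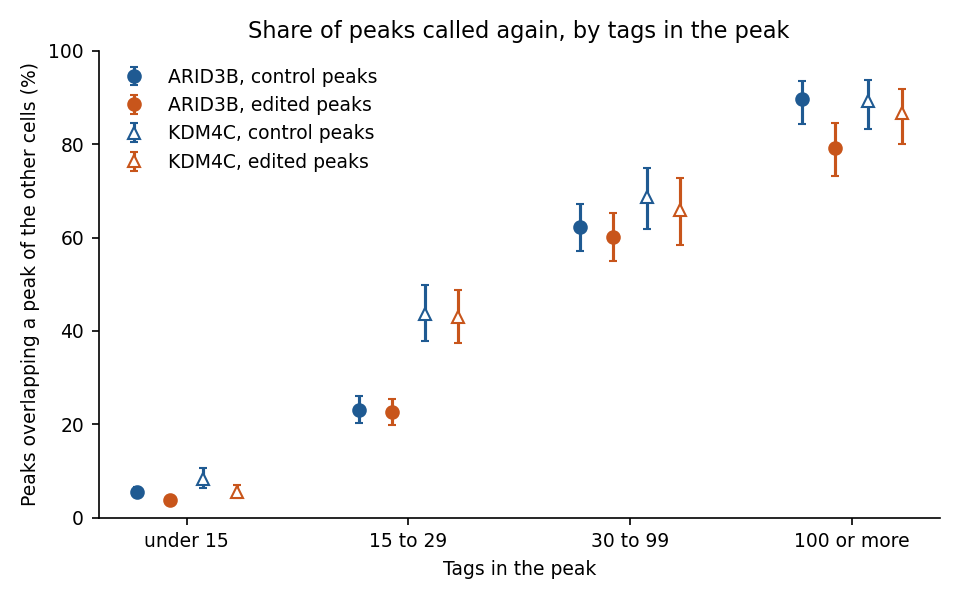
Share of peaks (percent, vertical axis) that overlap a peak of the other kind of cells, by number of tags in the peak (horizontal axis), for the ARID3B antibody (filled circles) and the KDM4C antibody (open triangles), with blue for control and orange for edited peaks. Bars are exact 95% intervals for counting error, and for ARID3B control peaks the share went from 5.46% under 15 tags to 89.6% at 100 tags or more.

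Width and summit position separated the classes as follows. The median width was 438 bp for kept control peaks (interval 417 to 463), 387 bp for their edited counterparts, 274 bp for lost peaks and 243 bp for gained peaks. The median tag number was 36 for kept control peaks, 32 for their edited counterparts, 13 for lost peaks and 11 for gained peaks. In these medians kept peaks were wider and held more tags than lost or gained ones. With both lists cut to a score of 100 or more before matching, the order of widths turned. Medians were then 565 bp for kept and 625 bp for lost peaks, while tags kept their order (85 and 44.5). Of the 78 control peaks counted as lost in this way, only 22 lacked an edited peak of any score. The rest overlapped an edited peak of lower score. The summit, the base with the most tags, lay a median of 209 bp from the start of kept control peaks, 146 bp in lost peaks and 129 bp in gained peaks. As a share of the width, the middle 50% of summits lay between 0.37 and 0.62 in kept control peaks, 0.38 and 0.63 in lost peaks and 0.37 and 0.63 in gained peaks. The spread of summits within the peak was thus similar in the 3 classes.

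By width, 12.5% of control peaks under 250 bp and 16.9% of those of 250 to 499 bp were kept, against 52.8% of those of 500 to 999 bp and 82.5% of those of 1000 bp or more. Fold enrichment did not order the peaks in the same way. In the control list 50.9% of the 173 peaks under 5-fold were kept, 15.1% of the 2074 peaks from 5 to 10-fold and 30.3% of the 778 peaks from 10 to 20-fold. All 70 control peaks of 20-fold or more were kept (interval 94.9% to 100%), as were 96 of the 100 such edited peaks. The range from 5 to 10-fold, with the lowest kept share, held 67.0% of the control peaks.

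Broad peaks, of 1000 bp or more, carried much of the signal. They numbered 166 in the control list and 181 in the edited list and held 51.3% and 45.5% of all tags in autosomal peaks. Their median tag number was 247.5 in control and 191 in edited cells, while their median fold enrichment was low, at 4.91 and 4.70, against 8.85 and 9.82 for narrower peaks of the same list. Of the broad edited peaks 66.3% had a control counterpart (interval 58.9 to 73.1), less than the 82.5% of broad control peaks that were kept (interval 75.9 to 88). Close to a centromere midpoint (within 5 Mb) lay 86 of the broad peaks in each list.

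The peaks with many tags that did not match were mostly of low fold enrichment. Among control peaks of 100 tags or more, 57 of 74 under 5-fold were kept (77%, interval 65.8 to 86.0), 78 of 81 from 5 to 10-fold and all 37 of 10-fold or more. Among edited peaks of 100 tags or more, 52 of 93 under 5-fold were matched (55.9%, interval 45.2 to 66.2), 77 of 81 from 5 to 10-fold and all 43 of 10-fold or more. More such peaks were gained than lost, 45 against 20. The 20 lost ones lay a median of 7083 bp from the nearest edited peak, and 13 of them lay within 10 kb of it. The 45 gained ones lay a median of 9103 bp from the nearest control peak, with 24 within 10 kb. Over all tag numbers the median distance was far larger, 154226 bp for lost peaks and 229336 bp for gained peaks, and 59.5% and 67.9% of them lay more than 100 kb from the other list.

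The kept regions described next lay away from centromeres (more than 5 Mb from the midpoint) and were the 6 with the most tags by the lower of their 2 libraries. The kept pair with the most tags was chr18:105685-111617, near the end of the short arm, with 2396 tags in control and 2684 in edited cells, and its summits lay 39 bp apart. On 16q, chr16:46431617-46435703 held 1851 tags in control and 2037 in edited cells, and chr16:46411678-46413807 held 728 and 689. The region chr1:161418707-161424835 held 609 and 627 tags, and chr10:135499988-135501762, near the end of 10q, held 525 and 592. In depth-scaled tags (tags divided by the filtered tags of the library), these 5 had log2 ratios of edited to control from 0.15 to 0.40. A control peak with more tags than 3 of them, chr8:129363300-129366548 with 750, met edited peaks of 296 and 136 tags and is described with the MYC window. The widest kept region, chr8:126601154-126607658, spanned 6505 bp in control cells with 863 tags and 6030 bp in edited cells with 542 tags, a log2 ratio of -0.44. Each of these 6 regions was in both KDM4C lists too.

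Away from centromeres, the lost peaks with the most tags lay mainly on 8q, while near centromeres a lost peak reached 1612 tags. The leading one away from them was chr8:128394488-128399136, 4649 bp wide, with 481 tags at 3.31-fold, and the nearest edited peak lay 3663 bp away. It was followed by chr8:129361689-129363251 with 339 tags, whose nearest edited peak lay 15 bp away, chr8:127092845-127097051 with 327 tags and chr8:126984222-126986773 with 211 tags. The other two were chr11:70035523-70037570 with 184 tags and chr9:66480974-66483279 with 168 tags. All 6 were broad, at 3.03 to 4.32-fold, and 3 of them (those with 481, 339 and 211 tags) were called with the KDM4C antibody in edited cells.

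Away from centromeres, the gained peaks with the most tags lay on 8q, 11q and 5p, while near centromeres chr2:92317637-92322223 reached 1871 tags. The leading one away from them was chr8:129353066-129356819, 3754 bp wide, with 582 tags at 3.73-fold, and the nearest control peak lay 4870 bp away. On 11q, chr11:69044707-69047910 had 327 tags, 91930 bp from any control peak. On 8q, chr8:128631335-128633790 had 289 tags, 232199 bp from any control peak. On 5p, the peaks were chr5:17525145-17527017 with 266 tags, chr5:17593076-17594772 with 248 tags and chr5:21482442-21485066 with 203 tags. These were as broad and as low in fold enrichment as the leading lost peaks, at 2.82 to 4.31-fold, and 1 of the 6 (chr5:17525145-17527017) was called with the KDM4C antibody.

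**Figure D2:**
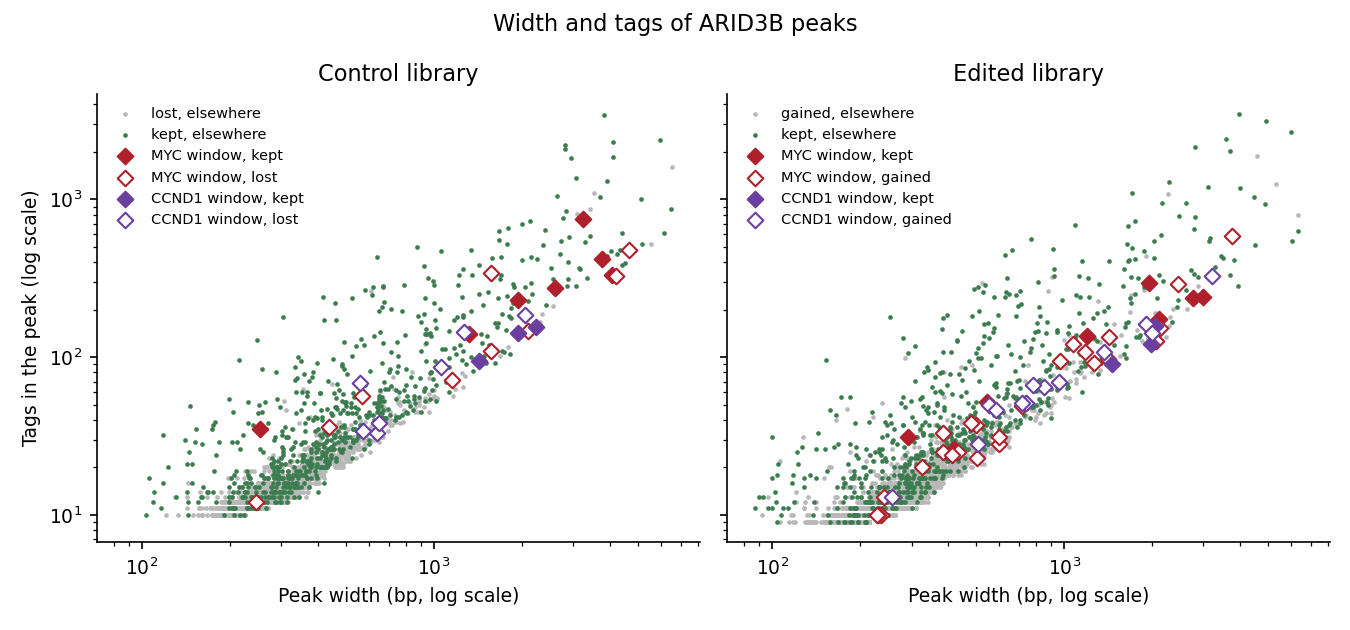
Width (bp, horizontal log axis) and tags (vertical log axis) of each autosomal ARID3B peak in the control library (left) and the edited library (right), green for kept and grey for lost or gained peaks; diamonds mark peaks in the 4 Mb windows around MYC (red) and CCND1 (violet), filled when kept and open when lost or gained. Unmatched peaks gather at few tags along the lower edge, where the median is 13 tags for lost and 11 tags for gained peaks, and the MYC and CCND1 diamonds lie mostly at larger widths, with window medians of 188 and 90.5 tags in control cells.

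Few unmatched peaks reached a score of 100, and the lost and gained ones among them differed in what they shared with KDM4C. There were 344 such control peaks and 393 such edited peaks, and 22 of the former were lost and 35 of the latter gained. The lost one with the highest score was chr18:19812185-19812868, with 46 tags and a score of 199.27. The gained one with the highest score was chr4:49093280-49098587, 5308 bp wide with 1254 tags, within 5 Mb of the centromere midpoint. These peaks were picked for their score, after the values were seen. Of the 22 lost peaks, 2 overlapped a KDM4C peak (9.09%, interval 1.12 to 29.2), against 22 of the 35 gained peaks (62.9%, interval 44.9 to 78.5). Gained peaks of this kind were also closer to the other list, at a median of 4870 bp against 107336 bp for the lost ones. A larger part of these gained peaks than of the lost ones lay within 5 Mb of a centromere midpoint. Its part in the KDM4C shares and the distances was not tested.

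Kept peaks were shared with the KDM4C antibody far more often than lost or gained ones. Of kept control peaks 73.8% overlapped a KDM4C peak of either kind of cells (interval 70.4 to 77), against 3.60% of lost peaks (86 peaks) and 4.56% of gained peaks (176 peaks). Read the other way, 522 of 608 control peaks that overlapped a KDM4C peak were kept (85.9%, interval 82.8 to 88.5), and 185 of 2487 that did not were kept (7.44%, interval 6.44 to 8.54). Of the 176 gained peaks shared with KDM4C, 98 were in its control list, 115 in its edited list and 37 in both. KDM4C overlap of gained ARID3B peaks was thus not tied to a KDM4C peak in edited cells alone. The same split held away from centromeres, where 265 of 311 control peaks with KDM4C were kept (85.2%) and 142 of 2248 without it (6.32%).

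Near centromeres the kept share was higher. Within 5 Mb of a centromere midpoint lay 536 control peaks (17.3%) and 735 edited peaks (16.1%). Of those control peaks 56.0% were kept (interval 51.7 to 60.2), against 15.9% elsewhere (interval 14.5 to 17.4). Peaks near centromeres that lacked KDM4C were kept in 18% of 239 cases (interval 13.3 to 23.5), and those with it in 86.5% of 297 cases. Sharing with KDM4C therefore went with a high kept share both near and away from centromeres. The split was not made within classes of tags or width, with which the kept share also rose, so their part in it was not tested.

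Matched peaks had nearly the same summit and a similar tag number in both libraries. The 707 kept control peaks and 717 edited counterparts formed 743 pairs, since 36 control peaks overlapped 2 edited peaks, 22 edited peaks overlapped 2 control peaks and 2 overlapped 3. Summits lay a median of 17 bp apart (interval 14 to 20), and 69.2% of pairs had summits within 50 bp. In 379 pairs with both widths under 500 bp the median was 12 bp, and in 179 pairs with a width of 1000 bp or more it was 100 bp (interval 31 to 261). Summits more than 500 bp apart occurred in 68 pairs, at most 3126 bp apart, and 62 of these had a width of 1000 bp or more. Broad peaks were thus matched as regions, with less fixed summits.

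In depth-scaled tags, edited peaks of matched pairs were slightly higher. The median log2 ratio of edited to control was 0.16 (interval 0.13 to 0.23), with 463 pairs higher and 280 lower. In unscaled tags the median was -0.07, so the direction rests on scaling by library depth. Pairs at least 2-fold higher numbered 41 (5.52%) and pairs at least 2-fold lower 46 (6.19%), and among the 633 pairs in which each peak had a single partner these numbers fell to 19 and 19. Pairs away from centromeres had a median of 0.07 and pairs near them 0.23. Pairs shared with KDM4C had a median of 0.23 and pairs without it -0.04 (interval -0.11 to 0.03), and matched KDM4C peaks had a median of 0.35. In unscaled tags the median was 0 near centromeres, in pairs shared with KDM4C and in matched KDM4C peaks. The values of 0.23 and 0.35 thus equal the depth scaling alone. Unscaled medians were -0.16 away from centromeres and -0.26 in pairs without KDM4C. After scaling, the median matched peak was thus not lower in edited cells, and the 191 pairs seen with the ARID3B antibody alone lay around equal levels.

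**Figure D3:**
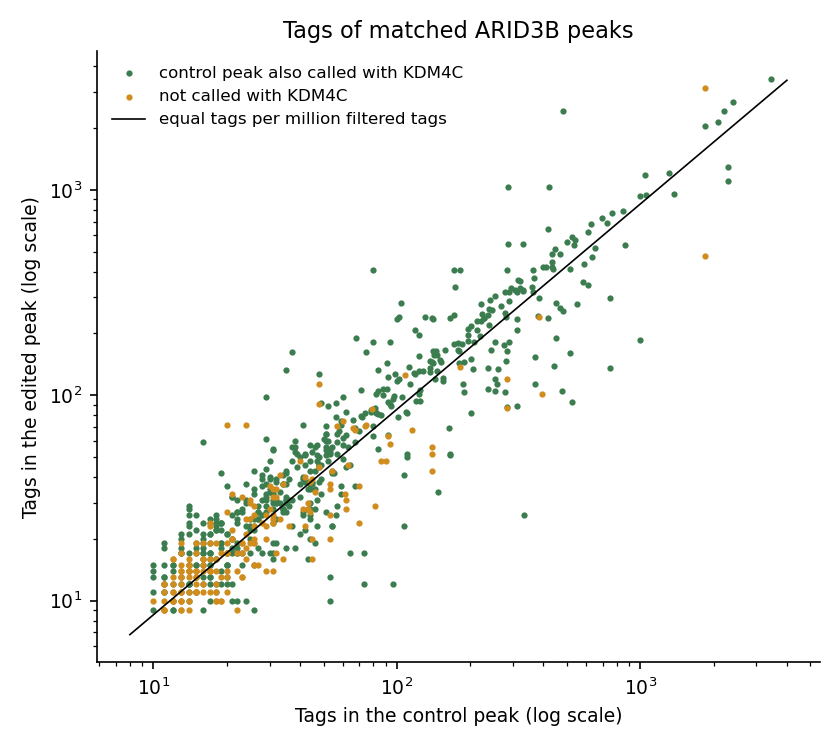
Tags of each matched ARID3B pair in the control peak (horizontal log axis) and in the edited peak (vertical log axis), green where the control peak also overlapped a KDM4C peak and orange where it did not. The line marks equal depth-scaled tags, and 463 of 743 pairs lie above it.

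The largest changes among strong pairs away from centromeres (score of 100 or more in both libraries) were few and often changed in width. The lowest ratio was at chr6:170686053-170686980, with 64 tags over 928 bp in control and 17 tags over 199 bp in edited cells, a log2 ratio of -1.69. The same control peak also overlapped another edited peak of 46 tags over 553 bp. The next lowest were at chr16:90183137-90184791, where a control peak of 165 tags met edited peaks of 51 and 52 tags, with log2 ratios of -1.47 and -1.44. In both regions 1 control peak met 2 edited peaks, so each ratio sets part of a region against the whole. The highest ratio was at chr2:162137589-162138049, with 48 tags over 461 bp in control and 127 tags over 1293 bp in edited cells, a log2 ratio of 1.63. That edited peak also overlapped a control peak of 98 tags (0.60), and that control peak an edited peak of 50 tags (0.29). It was followed by chr3:75718229-75718610 with 75 and 163 tags (1.35), where the edited peak also overlapped a control peak of 37 tags. Only the next, chr9:66454661-66456204 with 119 and 207 tags (1.03), was a pair in which each peak had a single partner. Over all 132 such pairs the median was 0.14, with 79 higher and 53 lower.

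Peak numbers did not rise evenly along the genome. A region is said to stand apart when the exact interval of its ratio of edited to control peaks leaves out the overall ratio of 1.48. Of 40 chromosome arms, 4 stood apart with a higher ratio (10%) and 2 with a lower one (5%). The higher arms were 13q, from 33 to 188 peaks (ratio 5.70, interval 3.92 to 8.52), 18p, from 18 to 71 (3.94, interval 2.33 to 7.03), 14q, from 75 to 162 (2.16, interval 1.63 to 2.88), and 9q, from 183 to 372 (2.03, interval 1.70 to 2.44). The lower arms were 7p, from 150 to 57 (0.38, interval 0.275 to 0.519), and 11p, from 104 to 81 (0.779, interval 0.575 to 1.05). With 12 tags or more in both lists, where the overall ratio is 1.03, 14q no longer stood apart (1.34, interval 0.915 to 1.97), 13q fell to 3.06 (interval 1.77 to 5.53), 7p to 0.179 and 11p to 0.568. The direction of 13q, 18p, 9q, 7p and 11p held. At this limit 8 arms stood apart, against 6 with all peaks, so arms not named here joined them.

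In number these shifts lay in weak peaks, which were also most of both lists. Over all autosomes 344 of 3095 control peaks and 393 of 4577 edited peaks had a score of 100 or more. A majority of weak peaks is thus not particular to these arms. On 13q the peaks with a score under 100 went from 31 to 183 and those of 100 or more from 2 to 5. On 7p the weak peaks went from 144 to 51, and the strong ones numbered 6 in both lists. On 9q the weak peaks went from 165 to 346 and the strong ones from 18 to 26, and on 11p from 93 to 64 and from 11 to 17. On 14q and 18p the weak peaks went from 71 to 157 and from 17 to 69, and the strong ones from 4 to 5 and from 1 to 2. On 11p the strong and the weak peaks thus went in opposite directions. Of the 33 control peaks of 13q 5 were kept (15.2%), and of the 150 of 7p 14 were kept (9.33%). Among kept pairs away from the centromere, 6 of 8 on 7p were lower in edited cells in depth-scaled tags (median log2 ratio -0.31) and 35 of 50 on 9q were higher (median 0.17). On 11p, an arm with fewer peaks in edited cells, 4 of 7 such pairs were higher (median 0.23), and on 14q 4 of 6 were (median 0.51). Of all 423 pairs away from centromeres 235 were higher (median 0.07). On 4p, which did not stand apart, 9 of 10 were lower (median -0.62). On 2p, also not apart, 11 of 13 were higher (median 0.35). The 4p control peaks of 514 and 1012 bp each entered with 2 edited peaks (-0.73 and -0.64, -2.18 and -1.80). These 4p ratios set part of a region against the whole and lower the median there.

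**Figure D4:**
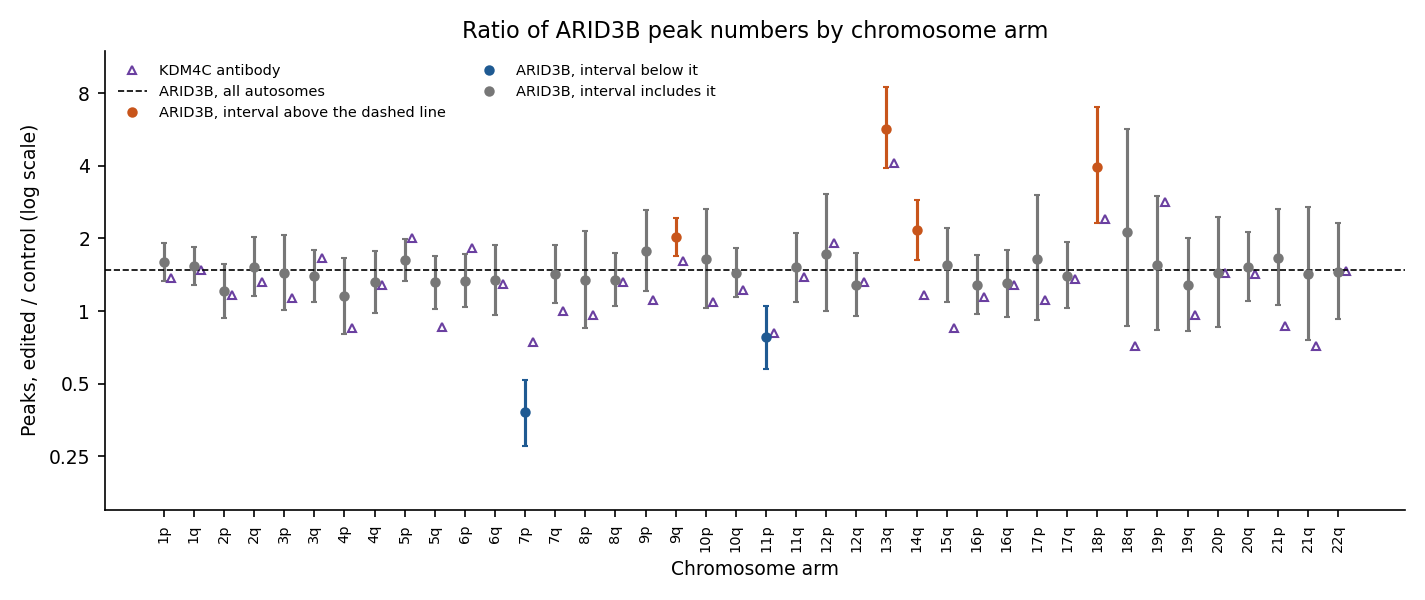
Ratio of edited to control ARID3B peak numbers (vertical log axis) for each chromosome arm (horizontal axis), circles with exact 95% intervals for counting error, and the ratio of KDM4C peaks as open triangles. The dashed line is the ratio over all autosomes, 1.48; 13q and 18p lie highest at 5.70 and 3.94, and 7p lies lowest at 0.38.

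The KDM4C lists moved in the same direction on several of these arms. Their peaks went from 18 to 74 on 13q (ratio 4.11), from 10 to 24 on 18p (2.40), from 80 to 129 on 9q (1.61), from 39 to 29 on 7p (0.744) and from 43 to 35 on 11p (0.814). On 14q they went from 43 to 50 (1.16), below the KDM4C ratio of 1.30 over all autosomes. Of these arms only 13q (interval 2.43 to 7.31) and 7p (interval 0.443 to 1.23) stood apart from 1.30. For 18p, 9q, 11p and 14q the interval included it. Arm 5p stood apart for KDM4C, from 39 to 78 peaks (interval 1.35 to 3.02), and not for ARID3B. Over the 30 arms with at least 40 peaks for each antibody, the 2 sets of ratios had a Spearman rho of 0.52, and 0.41 over 28 arms without 7p and 13q. This is a description over arms, which share cells and depth of sequencing within each antibody, and its part in the result was not tested. No arm can be called particular to ARID3B from these lists.

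Windows of 4 Mb stood apart on 5 of these chromosomes and on others. Of 687 windows, 16 stood apart with a higher ratio (2.33%) and 15 with a lower one (2.18%). The higher windows lay on chromosome 13 (7 windows), 9 (3), 1 (2), 18 (2), 3 (1) and 5 (1), and the lower ones on chromosome 7 (10), 11 (4) and 2 (1). None lay on chromosome 14. At a score of 60 or more in both lists only 4 windows stood apart. On 18p, chr18:4000001-8000000 had no control peak and 18 edited ones, and on 13q, chr13:68000001-72000000 and chr13:92000001-96000000 had none in control and 16 each in edited cells. On 5p, chr5:24000001-28000000 went from 10 to 36 peaks. On 7p, chr7:16000001-20000000 went from 14 peaks to 1 and chr7:12000001-16000000 from 15 to 2, and on 11p, chr11:32000001-36000000 went from 31 to 15. In the 16 higher windows KDM4C peaks went from 23 to 88 (ratio 3.83, interval 2.40 to 6.35), and in the 15 lower ones from 24 to 15 (0.625, interval 0.305 to 1.24).

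The density of peaks also differed between arms within each list. Arm 5p, the densest in control cells after the short mapped stretch of 21p (1.78 Mb), had 33.8 peaks per 10 Mb in control and 55 in edited cells, and 18q, the sparsest in both lists, had 1.35 and 2.87. Arm 13q went from 3.46 to 19.7 peaks per 10 Mb, 18p from 11.7 to 46.1 and 7p from 25.8 to 9.82. Arms also differed in the kept share, with 6.25% on 3q (7 of 112) and 7.21% on 6p (8 of 111), and 45% on 2p (50 of 111) and 50.8% on 4p (30 of 59). Most kept peaks of 2p and 4p lay within 5 Mb of the centromere midpoint. Only 13 pairs on 2p and 10 on 4p lay away from it. Over all autosomes the kept share was 56.0% near centromeres and 15.9% elsewhere, and the part of this in the arm shares was not tested.

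Windows of 2 Mb to each side of 42 genes, 19 oncogenes, 21 tumour suppressors and the study's ARID3B and KDM4C, held 156 control and 188 edited peaks. Gene positions were taken to the nearest Mb from general knowledge of the build, and a peak in a window is not assigned to the gene. The ratio was 1.21 (interval 0.969 to 1.5), and 0.901 (interval 0.689 to 1.18) with 12 tags or more in both lists. Oncogene windows went from 111 to 123 peaks (1.11, interval 0.850 to 1.45) and suppressor windows from 41 to 61 (1.49, interval 0.985 to 2.27). Of the 156 control peaks 33 were kept (21.2%, interval 15 to 28.4), beside 22.8% of all autosomal control peaks. The windows around cancer genes thus kept about the same share of peaks as the genome. No window stood apart with a higher ratio, and 2 of the 41 windows with a peak stood apart with a lower one, beside 2.18% of all 4 Mb windows.

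The lower windows were those of EGFR, a receptor tyrosine kinase often amplified in head and neck cancer, and of MDM2, a ubiquitin ligase. The EGFR window went from 19 to 6 peaks (ratio 0.316, interval 0.103 to 0.822), of which 4 control peaks were kept. It lies on 7p, 8 of the control and 3 of the edited peaks lay within 5 Mb of the centromere midpoint, and without these the ratio was 0.273 (interval 0.0489 to 1.03). With 1 Mb to each side the interval of EGFR was 0.0290 to 1.5 and the window no longer stood apart. The strongest EGFR-window peak, chr7:56437911-56440806, had 581 tags in control cells, and its counterpart chr7:56438162-56440878 had 356 in edited cells. All 4 pairs in the window were lower in edited cells in depth-scaled tags, with log2 ratios from -0.96 to -0.08. The MDM2 window went from 5 peaks, of at most 12 tags, to none, and with 12 tags or more in both lists it no longer stood apart (interval 0 to 39).

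The MYC window held the most peaks of any cancer-gene window, and many of them were wide and rich in tags. MYC encodes a transcription factor that drives cell growth. Its window went from 16 to 33 peaks (ratio 2.06, interval 1.10 to 4.01, which includes 1.48), and 7 control peaks were kept. The median tag number was 188 in control and 49 in edited cells, and the median width 1754 and 599 bp, against 36 tags and 438 bp for all kept control peaks. Peaks of 1000 bp or more numbered 12 in control and 14 in edited cells, and the tags in all peaks of the window summed to 3762 and 3365. In net number, broad peaks thus made up little of the rise from 16 to 33 peaks. A score under 60 was found in 20 of the 33 edited peaks, against 4 of the 16 control peaks. A low score did not always mean a small peak. The gained peak chr8:128631335-128633790 had 289 tags over 2456 bp at a score of 53.09.

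Broad regions in the MYC window were in part called at different places in control and edited cells. Of the 11 control peaks of 100 tags or more 6 were kept, and of the 12 such edited peaks 5 had a counterpart. The control peak with the most tags, chr8:129363300-129366548, had 750 tags over 3249 bp, and edited cells had chr8:129363266-129365213 with 296 tags and chr8:129365344-129366540 with 136 tags in its place. The region chr8:128268866-128272622 had 418 tags in control cells and chr8:128269238-128272228 had 239 in edited cells. The 8 pairs of the window had a median log2 ratio of -0.85 in depth-scaled tags, with 6 lower. The control peak of 750 tags enters once with each of its edited peaks. A control peak of 334 tags over 4073 bp met an edited peak of 26 tags over 418 bp (-3.46). Such ratios set part of a region against the whole, and edited peaks without a counterpart are left out. The median thus does not measure the tags of the whole window, whose unscaled sums were 3762 and 3365. The MYC-window peak with the highest fold enrichment was narrow and kept, chr8:129470539-129470791 with 35 tags at 22.28-fold in control cells and chr8:129470399-129470690 with 31 tags at 28.25-fold in edited cells.

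The CCND1 window, around the gene of the cell cycle regulator cyclin D1, had the same broad form. It went from 10 to 16 peaks (ratio 1.60, interval 0.683 to 3.94), with 3 kept, and 6 and 7 of the peaks were broad. The kept regions were chr11:69139840-69142070 with 155 tags in control and 121 in edited cells, chr11:69723199-69724626 with 94 and 91, and chr11:69775115-69777058 with 142 and 157. The lost and the gained 11q peaks named above, with 184 and 327 tags, lie in this window. The tags in all its peaks summed to 980 in control and 1549 in edited cells. Away from centromeres, broad peaks were few, 80 in control and 95 in edited cells, and the 4 Mb window with the most was chr8:124000001-128000000 with 10 and 16, followed by chr8:128000001-132000000 with 7 and 10 and chr11:68000001-72000000 with 6 and 7.

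Oncogene windows on 3q held narrow peaks of few tags. PIK3CA, which encodes the catalytic subunit of a lipid kinase, had 7 control and 10 edited peaks in its window, with none kept and at most 21 tags. The window of SOX2, a stem cell transcription factor, overlaps that of PIK3CA and went from 6 to 13 peaks (ratio 2.17, interval 0.768 to 6.95), with none kept. The window of TP63, a transcription factor of squamous epithelium, went from 10 to 5 (0.50, interval 0.134 to 1.61), also with none kept. On the whole arm, 7 of 112 control peaks were kept (6.25%).

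The windows of HRAS and TERT reach the end of a chromosome arm. The HRAS window, around a gene of a small GTPase on 11p, went from 9 to 7 peaks, and 6 of the control peaks were kept, among them chr11:1016611-1017058 with 43 tags in control and chr11:1016606-1017094 with 35 in edited cells. The TERT window, around the gene of the catalytic subunit of telomerase, went from 9 to 10 with 1 kept, chr5:9965-11794 with 205 tags in control and chr5:9966-11772 with 135 in edited cells. The AKT1 window, around a kinase gene of growth signalling, went from 3 to 9 peaks (ratio 3, interval 0.749 to 17.2) with none kept, and the ERBB2 window from 7 to 8 with none kept.

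Among suppressors, the BRCA1 window, around a DNA repair gene, held the strongest kept peaks. It went from 5 to 10 peaks (ratio 2, interval 0.623 to 7.46), and 3 were kept. These were chr17:41399622-41401311 with 331 tags in control and 321 in edited cells, chr17:41381596-41382564 with 143 and 120, and chr17:41466013-41466337 with 35 and 31. All 3 were in both KDM4C lists too. The NOTCH1 window, around a receptor gene often mutated in squamous carcinoma, went from 6 to 5 with 2 kept, and the strongest was chr9:140739538-140741024 with 101 tags in control and 78 in edited cells. The window of NSD1, a histone methyltransferase gene, held 9 peaks in each list with 3 kept.

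Most other suppressor windows held little. The CDKN2A window, around the gene of the cell cycle inhibitor p16, went from 3 peaks, of at most 12 tags, to 1 peak, with none kept. In 27 of the 41 windows with a peak, no peak of either list reached 20 tags, and in 19 windows both lists together held at most 4 peaks. The SMAD4 window, around a mediator of TGF-beta signalling, had no control peak and 1 edited peak, chr18:50319088-50319238, with 17 tags at 27.83-fold and a KDM4C peak in both kinds of cells. No suppressor window stood apart in either direction.

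The loci of the study's own genes held few peaks. The ARID3B window on chromosome 15 had 3 control and 4 edited peaks, and the kept one, chr15:73801305-73801650, had 19 tags in control cells and 10 tags at chr15:73801296-73801516 in edited cells. No KDM4C peak was called in that window in either kind of cells. The KDM4C window on chromosome 9 had 2 control and 4 edited peaks. Its kept peak was strong, chr9:6594515-6594946 with 34 tags at 25.32-fold in control cells and chr9:6594644-6594811 with 28 tags at 44.2-fold in edited cells, and it was called with the KDM4C antibody as well. None of these peaks can be assigned to the edit itself, whose position is not given in the labels.

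**Figure D5:**
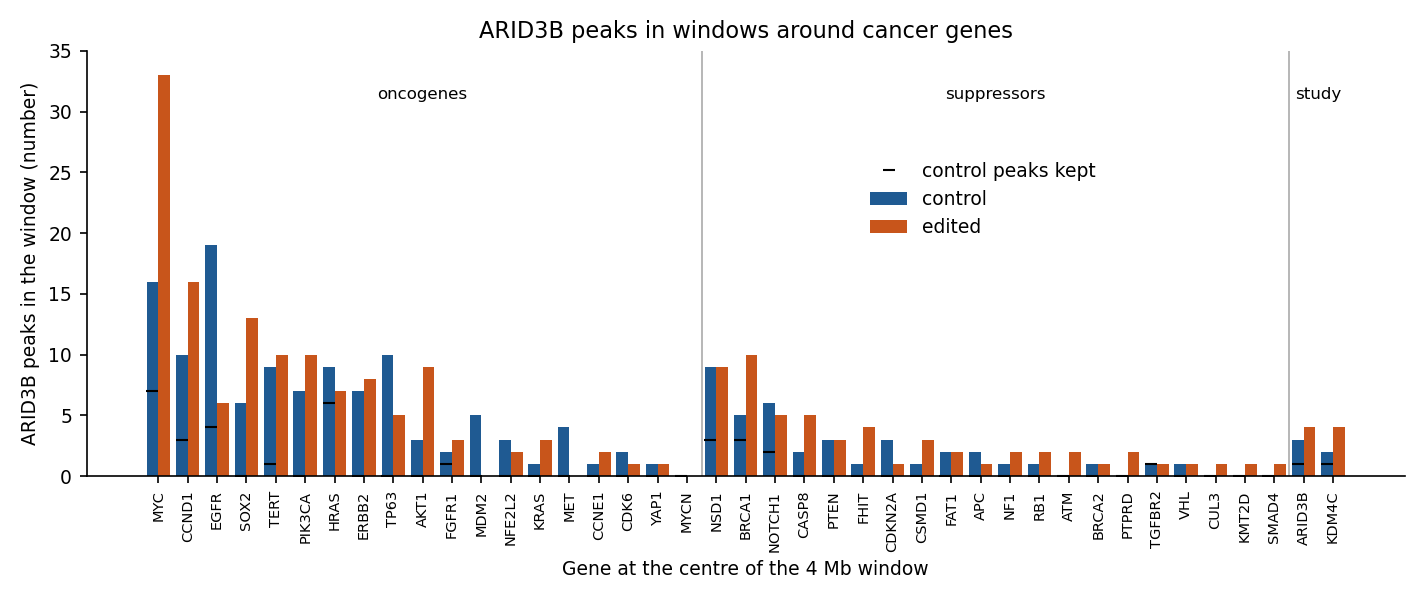
Number of ARID3B peaks (vertical axis, from 0) within 2 Mb to each side of 41 of the 42 genes (horizontal axis; oncogenes, suppressors and the study's own genes), blue for control and orange for edited cells, with a black dash at the number of control peaks kept. MYC has the most peaks, 16 and 33, EGFR falls from 19 to 6, and 30 of the 42 windows have no kept peak.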

How the data were processed

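Peak lists from 4 chromatin immunoprecipitation libraries (ARID3B or KDM4C antibody, control or ARID3B-edited OECM1 cells) were used, 1 library per group, with groups taken from the sample titles. Per the file headers, the authors called peaks with MACS 1.4.2 in each library alone, without a control library, at a p-value cutoff of 1e-05, with a 10000 bp local background, keeping no more than 1 tag at a position. The submitters' processing notes name the build GRCh37 and the tools bcl2fastq 2.1.5 and BWA 0.7.12. The deposited tag count of a peak is a raw whole number, and the deposited score and fold enrichment (a ratio to local background) are the caller's, per the file headers. No input library was analysed here, so regions that gather tags in any library can be called.

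Peaks on chromosomes 1 to 22 were matched by an overlap of at least 1 bp. Positions were taken as given and widths as end minus start plus 1. Shares have Clopper-Pearson intervals, ratios of peak numbers have exact binomial intervals of the edited count given the sum, and medians have binomial order-statistic intervals, all at 95% (Python 3.11.15, SciPy 1.17.1, pandas 2.3.3). Depth-scaled tags are tags over the library's filtered tags, which numbered 16209985 to 24439463, and a peak of 9 to 12 tags can be called or missed through counting error. The centromere midpoints and the positions of 42 genes were taken to the nearest Mb from general knowledge of the build. A gene table on another build was used only to check the chromosomes of these genes, and all 42 matched.

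Named regions were, more than 5 Mb from a centromere midpoint, the 6 kept, lost and gained peaks with the most tags, the 3 widest of each, and the 3 strong pairs (score of 100 or more in both) with the highest and the lowest tag ratio. Named windows were the 6 highest and 6 lowest ratios among gene windows with 10 or more peaks, and 8 fixed genes. Windows and peaks named beyond this rule were chosen after their values were seen. The members and lists were chosen with earlier results of these data known. Alternatives varied the overlap, the score and tag minimum, chromosomes X and Y, centromeres, KDM4C overlap, window size and scaling. Matching and intervals were tested on simulated lists. The window of 1 gene is counted in the totals and not reported here.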

Additional observations from a re-analysis of the deposited data

Results flagged for a closer look

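On 8 chromosome arms ARID3B peaks were more numerous in the edited list and KDM4C peaks in the control list, with 1 library each. None of these arms stood apart from the ratio over all autosomes, 1.48 for ARID3B and 1.30 for KDM4C. On 21q, 8p, 5q, 19q and 4p both antibodies lay below their own ratio over all autosomes. The ratios of edited to control peaks for ARID3B and KDM4C were 2.13 and 0.714 on 18q, 1.67 and 0.870 on 21p, 1.55 and 0.85 on 15q and 1.42 and 0.714 on 21q. They were 1.34 and 0.962 on 8p, 1.32 and 0.863 on 5q, 1.28 and 0.963 on 19q and 1.15 and 0.848 on 4p. On none of these arms was the difference tested. On 18q the counts were 8 and 17 peaks for ARID3B and 7 and 5 for KDM4C, so a few peaks decide the ratios there.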

How the results depend on the processing

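Of the alternative values for the comparisons, 52 kept their direction and size, 53 moved and 2 reversed, and of those for single arms and windows 47 kept and 7 moved. Unless said otherwise, the cause was not tested.

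With a score of 60 or more in both lists, by construction fewer peaks, the kept share was 39.9%, the matched share of edited peaks 30.5%, the ratio of peak numbers 1.33, lost peaks 772 and gained peaks 1190. Median widths were then 492, 330 and 280 bp and median tags 48, 17 and 14 for kept, lost and gained peaks, 28.2% and 25.7% of control and edited peaks lay near centromeres, and 4 windows stood apart, against 31. With a score of 100 or more the same values were 77.3%, 69.5%, 1.14, 78 and 120, widths of 565, 625 and 368 bp (kept peaks no longer wider than lost ones), 85, 44.5 and 28 tags, and 47.4% and 49.1% near centromeres, with a summit distance of 10 bp and a log2 tag ratio of 0.23. Of control peaks with that score, 93.6% overlapped any edited peak, so only 22 of the 78 counted as lost had no edited peak at all. Among the 1000 highest scores of each list, 45.3% and 45.5% matched.

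A gap of up to 500 bp gave 16.8% of edited peaks matched. Matching by summits within 100 bp gave 18.2% and 12.3% and a summit distance of 9 bp, which its limit fixes in part. With chromosomes X and Y the shares were 25.2% and 17.3%. Without peaks near centromeres they were 15.9% and 10.9%, with 29 tags in kept peaks, a summit distance of 23 bp and a log2 tag ratio of 0.0668, and at 10 Mb 22.8% and 21.7% of peaks were near centromeres. Without peaks that overlap KDM4C the shares were 7.44% and 4.78%, the ratio of peak numbers 1.56, kept peaks had 375 bp and 21 tags, and the log2 tag ratio was -0.0358, a reversal. Unscaled tags reversed it to -0.0704, and scaling by width gave 0.27. With 12 tags or more the ratio of peak numbers was 1.03, and 0.901 in the cancer-gene windows.

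The alternatives on gene windows and arms without centromeres and on arms at a score of 60 were chosen after seeing the data. No paired analysis was possible because each group has 1 library, and leaving out a library would empty a group. Among unmatched peaks, 666 of the 2388 lost and 2031 of the 3860 gained had 9 to 11 tags, close to the lowest tag number called.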
